A study of Mus musculus with 6 samples.

Results

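The genes described here are those of glycolysis, of glucose and lactate transport and of the response to low oxygen. Of a list of 36 such genes, 33 were measured by at least 1 probe set whose annotation names a single gene, among 18193 genes so measured, and each was read from the probe set of its own that was brightest on average across the arrays. Gapdh, Gpi1 and Eno1 had no such probe set. The 6 Affymetrix MOE430_2 arrays profiled marrow cells of wild-type C57BL/6 mice, used fresh and without treatment: 3 arrays held Ebf2-positive cells and 3 held Ebf2-negative cells. Both groups were sorted as negative for CD45 (leukocytes), TER119 (erythroid cells) and CD31 (endothelium), so that they differ by label only in Ebf2, a transcription factor of immature mesenchymal cells. RNA of 1000 or 2000 cells a sample was amplified before hybridization. The sources used here do not give how Ebf2 was detected, the age of the mice beyond adult, or whether replicates came from separate animals, so a p-value reflects the spread among these 6 samples alone and that spread may be technical.

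Glycolysis splits glucose into pyruvate, which is either reduced to lactate and exported or oxidised in mitochondria. Most steps can be run by several isoenzymes, encoded by separate genes with different kinetics and tissue preferences, so a cell type is often marked by which isoenzyme it uses. When oxygen is short, the prolyl hydroxylases of the Egln family stop marking HIF-alpha proteins for destruction, and the HIF factors raise transporters, glycolytic enzymes and lactate export. Haematopoietic stem cells in the marrow are known for a glycolytic metabolism, and mature mouse red cells, which lack mitochondria, make their ATP by glycolysis.

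Signals are log2 of the deposited RMA values, differences are Ebf2-positive minus Ebf2-negative on that scale with n = 3 arrays a group, errors after ± are SD, and a gene was called when its adjusted p in limma (Benjamini-Hochberg over all 18193 genes) was under 0.05. Levels of different genes come from different probes and are not compared. The array median over all probe sets lay between 3.69 and 3.80, and signals near it are dim. Ebf2 itself was at 8.33 ± 0.41 against 3.66 ± 0.49, Ebf2-positive cells first as in all pairs below. Of the genes of the gate, Pecam1 (CD31) was near the array median in both groups (3.15 to 4.15 against 2.48 to 3.80), while Ptprc (CD45) was at 3.59 to 6.76 against 7.98 to 8.78 and not called. Of the 10 leukocyte and myeloid markers, 1 was called higher and 1 lower, with list means of 6.97 to 8.23 against 7.90 to 8.37. The median difference of this list was -0.88. Some myeloid transcripts were bright in both groups: S100a8 was at 9.75 to 11.20 against 10.77 to 11.35. Lyz2 was dimmer on Ebf2-positive replicates 1 and 3 (5.97 and 6.16) than on the other arrays (8.93 to 9.53). The marker called lower was Laptm5 (-2.64; limma, adjusted p = 0.0127). The marker called higher, Mpo, the peroxidase of granulocyte precursors, was at 11.15 to 11.36 against 9.35 to 10.40 (1.42; limma, adjusted p = 0.0157). Mpo, Laptm5, S100a8 and Lyz2 were named here after their values were seen. The Ebf2-negative gate carried red-cell and dividing-cell transcripts: 11 of 11 measured erythroid markers (Rhag, Slc4a1 and Alas2 among them) were called lower in Ebf2-positive cells, with list means of 9.60 to 9.82 on the Ebf2-negative and 4.66 to 5.29 on the Ebf2-positive arrays, and 9 of 9 cell-division markers were called lower too (9.13 to 9.21 against 4.19 to 5.99). Mural markers (10.48 to 10.76 against 4.47 to 5.40, 6 of 6 called higher) and stromal markers (11.25 to 11.75 against 7.99 to 8.76, 6 of 8 higher) ran the other way. Skeletal muscle markers averaged 6.72 on Ebf2-positive replicate 2 and 3.71 to 4.68 on the other arrays. The part of these cell types in the results below was not tested, and in sorted bulk samples fewer cells of a type and less RNA per cell cannot be told apart. The ratio of the 3' to the 5' Gapdh control probe set, which rises when RNA is degraded or amplified from the 3' end, was 25.4 and 27.6 on the replicates numbered 1 and between 8.45 and 11.2 on the other arrays.

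Of the 33 genes, 11 were higher and 5 lower in Ebf2-positive cells and 17 were not called. Over all genes tested 24.4% were called, 10.8% higher and 13.6% lower. The groups did not overlap for 20 of the 33 genes, against 43.0% of all genes. The median difference of the 33 genes was 0.31, beside 0.07 over all genes tested. The list did not move as a block: within transport, phosphofructokinase and lactate dehydrogenase, a member called higher stood beside another called lower, although Pfkp and Ldhb fell below 0 under the centring described next. Every difference is taken against the rest of the array, and the poly-A control transcripts differed between groups (12.32 ± 0.23 against 9.84 ± 0.996). Centring on these controls, called poly-A centring here, gives other signs: it lowers every difference by 2.48, and of the 11 genes called higher 2 stayed above 0 (Slc2a1 and Slc2a4) while 9 fell to 0 or below. Differences between isoenzymes on the same array are not touched by it. The controls also varied within groups, and poly-A centring passes that error to all genes of an array alike. Limma pools variances over genes as if they were separate. Calls and adjusted p-values with poly-A centring are therefore no reliable measure of the spread among replicates.

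**Figure D1:**
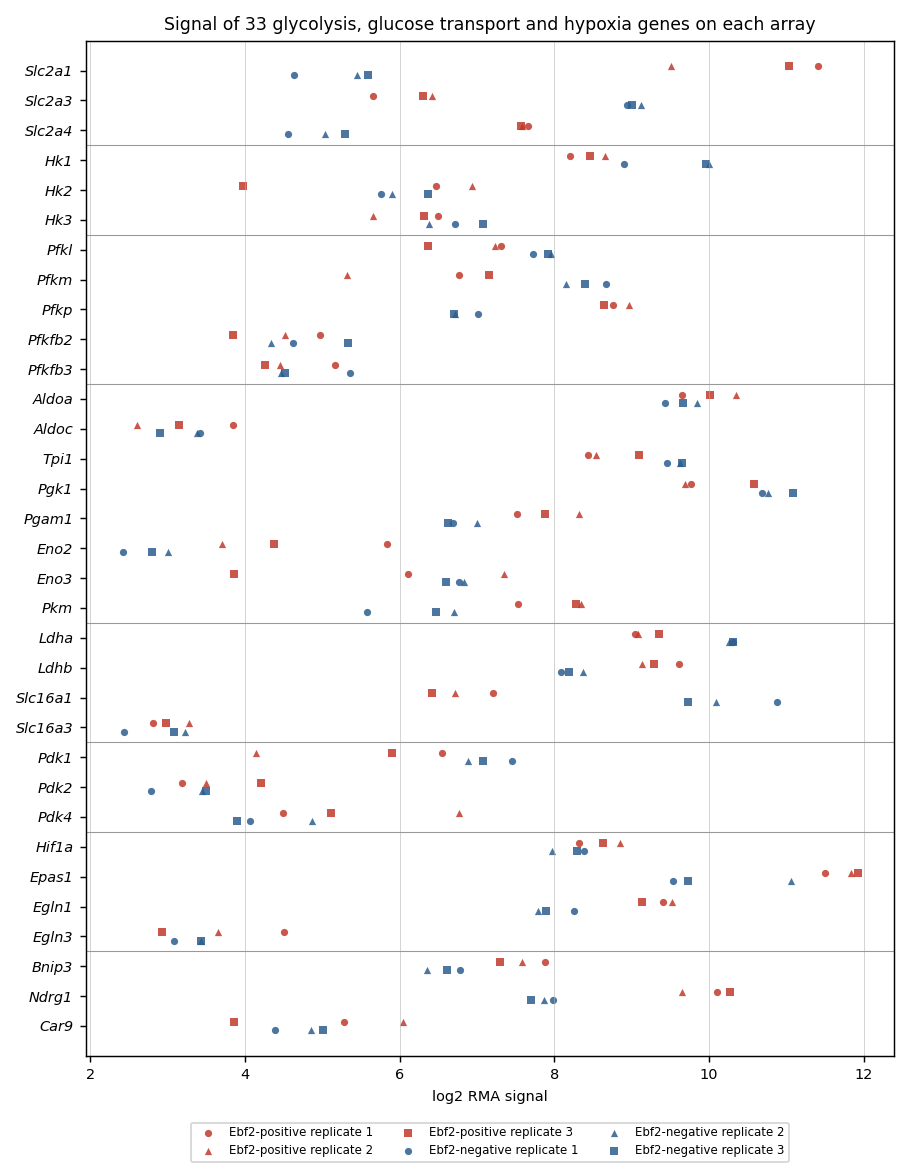
Log2 RMA signal (x axis) of each of the 33 genes (rows, grouped by role) on the 3 Ebf2-positive (red) and 3 Ebf2-negative (blue) arrays, with a marker shape for each replicate number. Red and blue points lie farthest apart for Slc2a1, at 9.51 to 11.41 against 4.63 to 5.59, and the order of colours is turned for Slc2a3 and Slc16a1.

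The glucose transporters separated the groups in opposite directions. Slc2a1, which encodes GLUT1, the widespread transporter of basal glucose uptake, was at 11.41, 9.51 and 11.03 on Ebf2-positive replicates 1, 2 and 3 and at 4.63, 5.45 and 5.59 on the Ebf2-negative arrays. Even the lowest Ebf2-positive array, replicate 2, stood well above every Ebf2-negative array. The difference was 5.43 (SE 0.54), or 43.1-fold (limma, adjusted p = 0.00125), it stayed higher with poly-A centring (2.95), and the other two probe sets of Slc2a1 differed by 5.07 and 3.76. Slc2a3, which encodes GLUT3, a high-affinity transporter of neurons and blood cells, was at 5.65, 6.41 and 6.30 against 8.94, 9.12 and 9.01. Every Ebf2-negative array was higher, and those arrays lay close together. Its difference was -2.90 (SE 0.25; limma, adjusted p = 0.000803), and a further probe set, also of a kind that can cross-hybridise, gave -2.70. The remaining Slc2a3 probe sets were dim on every array and differed by -0.02 and 0.03, so without cross-hybridising probe sets Slc2a3 was not called (-0.02, adjusted p = 0.944). Slc2a4, the insulin-responsive GLUT4 of muscle and fat, was at 7.66, 7.59 and 7.57 against 4.56, 5.04 and 5.29, a difference of 2.65 (SE 0.24; limma, adjusted p = 0.0009). Its Ebf2-positive values lay close together. Of the 8 skeletal muscle markers, Tnnt3 was called higher (1.44, limma, adjusted p = 0.0452). Tnni2 was higher on every Ebf2-positive array without a call (1.60, limma, adjusted p = 0.0553). The other muscle markers overlapped between groups and were not called, with differences from -1.36 (Mylpf) to 1.85 (Myh1). Of 4 measured adipocyte markers, Fabp4, a fatty acid carrier also found in endothelium, was called higher (1.91; limma, adjusted p = 0.00464), while Adipoq was not (-1.30). Tnnt3, Tnni2 and Fabp4 shared the sign of the Slc2a4 difference between groups, while Adipoq, Mylpf, Myh4 (-0.79) and Acta1 (-0.10) did not. The remaining measured markers of both lists shared it without a call. Some of these markers were named after their values were seen. The part of muscle or fat cells in the Slc2a4 difference was not tested. With poly-A centring the Slc2a4 difference was 0.17 and not called (adjusted p = 0.834), and its dimmer probe set differed by 0.76 without a call.

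Slc2a1 had the largest difference of the list, and the start of its gene is shown with the letters that HIF complexes are known to bind, ACGTG and GCGTG on either strand, in capitals. The window runs from 250 bases before to 50 after the RefSeq start (GRCm38.p6, chr4:119108495-119108794, plus strand).
Slc2a1: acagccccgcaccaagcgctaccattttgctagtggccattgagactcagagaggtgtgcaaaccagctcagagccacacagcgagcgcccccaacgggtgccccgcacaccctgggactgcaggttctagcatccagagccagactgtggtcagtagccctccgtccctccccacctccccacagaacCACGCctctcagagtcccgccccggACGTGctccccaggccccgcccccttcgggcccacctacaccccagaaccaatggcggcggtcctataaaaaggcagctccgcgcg
It holds 2 matches, an ACGTG on the gene's strand beginning 36 bases before the start and a GCGTG on the opposite strand beginning at -61.

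None of the 3 hexokinases, which trap glucose in the cell as a phosphate, was called by limma, and 1 had an unadjusted p under 0.05. Hk1, the isoenzyme of red cells and brain, was at 8.20, 8.66 and 8.46 against 8.90, 9.997 and 9.96. The groups did not overlap, but Ebf2-negative replicate 1 lay near the Ebf2-positive arrays. The difference of -1.18 (SE 0.34) was just short of a call (limma, adjusted p = 0.0508). Hk1 was called lower in 6 of 16 alternative settings and not in 10, with poly-A centring and a minimum difference left aside. The 6 were leaving out Ebf2-negative replicate 1 (limma, adjusted p = 0.0157), centring on the array median (0.0436) and a mean log2 signal of at least 5 (0.0363). A trended, robust variance prior (0.0454), array weights (0.0412) and the replicate number as a block (0.0368) were the others. Hk2, the inducible and insulin-responsive form, was at 6.47, 6.94 and 3.98 against 5.76, 5.90 and 6.37. Its Ebf2-positive values spread over both sides of the Ebf2-negative ones, with replicate 3 far below replicates 1 and 2, and the difference of -0.21 had a 95% interval of -2.03 to 1.61. Hk3, the myeloid form, differed by -0.57 (interval -1.29 to 0.16), with overlapping groups.

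At phosphofructokinase, the committed step of glycolysis, 1 subunit was called higher and 1 lower, the first of them only before poly-A centring. Pfkp, the platelet-type subunit, was at 8.76, 8.97 and 8.64 against 7.01, 6.72 and 6.70, a difference of 1.98 (SE 0.20; limma, adjusted p = 0.00127) that became -0.50 with poly-A centring. Pfkm, the muscle-type subunit, was at 6.77, 5.32 and 7.16 against 8.67, 8.15 and 8.40, a difference of -1.99 (SE 0.48; limma, adjusted p = 0.0275). The groups did not overlap for either subunit, and their differences had nearly the same size with opposite sign. Ebf2-positive replicate 2 had the lowest Pfkm signal of all 6. The same array had the brightest muscle markers and the lowest erythroid and cell-division list means (4.66 and 4.19). A link of these to Pfkm was not tested. The Pfkm call was lost without Ebf2-negative replicate 1, 2 or 3 (adjusted p = 0.0961, 0.0625 and 0.0885). For Pfkp, the 2 dim probe sets differed by 0.28 and -0.19, and the mean of its probe sets was not called (0.69, adjusted p = 0.0535). Pfkl, the liver-type subunit, was at 7.32, 7.24 and 6.36 against 7.73, 7.95 and 7.92, without overlap, and its difference of -0.89 was not called (adjusted p = 0.0754). Pfkfb2 and Pfkfb3, whose enzymes make the activator fructose 2,6-bisphosphate, were dim and differed by -0.32 and -0.15, with overlapping groups.

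Among the enzymes from aldolase to pyruvate kinase, 3 were higher, 1 lower and 4 not called. Aldoa, the main aldolase outside liver and brain, was bright in both groups (9.65, 10.35 and 10.02 against 9.43, 9.85 and 9.66). Its difference of 0.36 had an interval of -0.23 to 0.95. All 5 Aldoa probe sets are of a kind that can cross-hybridise. Aldoc, the brain-type aldolase, was under 4 on every array. Tpi1, triosephosphate isomerase, was at 8.43, 8.54 and 9.09 against 9.45, 9.62 and 9.66, a difference of -0.89 (SE 0.24; limma, adjusted p = 0.0372). Every Ebf2-negative array was above every Ebf2-positive array, and the other two Tpi1 probe sets gave -0.97 and -0.71. The Tpi1 call was nonetheless lost without Ebf2-positive replicate 1 or 2 (adjusted p = 0.0845 and 0.085) or without Ebf2-negative replicate 1, 2 or 3 (0.0832, 0.112 and 0.128). It was also lost with a further quantile normalization (0.0832) and with centring on the 75th percentile (0.0594). Pgk1, phosphoglycerate kinase and a classical HIF target, was at 9.77, 9.68 and 10.58 against 10.69, 10.77 and 11.09. Its difference of -0.84 was not called (limma, adjusted p = 0.088), passed without Ebf2-positive replicate 3 (adjusted p = 0.0208), and was matched by -0.85 and -0.96 from its further probe sets.

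Of the last steps before pyruvate, Pgam1, Eno2 and Pkm ran the other way on the array's own scale. Poly-A centring turned Pgam1 (-1.34), Eno2 (-0.58) and Pkm (-0.68) below 0. At the same steps Eno3 was not called (-0.97), Eno1 was not measured, and Pklr, a further pyruvate kinase gene outside the list, was lower (-3.32). Pgam1, phosphoglycerate mutase, was at 7.52, 8.32 and 7.88 against 6.68, 6.99 and 6.63, a difference of 1.14 (SE 0.26; limma, adjusted p = 0.0223) with groups apart. That call was lost without Ebf2-negative replicate 1 or 3 (adjusted p = 0.0779 and 0.089). Pkm, pyruvate kinase M, was at 7.53, 8.35 and 8.28 against 5.57, 6.70 and 6.47, a difference of 1.80 (SE 0.38; limma, adjusted p = 0.0163). In both groups the replicate numbered 1, with the high 3' to 5' ratio, was the lowest, and the lowest Ebf2-positive array was still above the highest Ebf2-negative one. The array does not tell the M1 from the M2 splice form here, since a single probe set measured the gene. Eno2, the neuronal enolase, was at 5.83, 3.70 and 4.38 against 2.42, 3.002 and 2.80, so that it was dim in Ebf2-negative cells and variable in Ebf2-positive ones. Its difference of 1.90 (SE 0.54; limma, adjusted p = 0.0465) was lost without Ebf2-positive replicate 3 (adjusted p = 0.0766) and without Ebf2-negative replicate 1, 2 or 3 (0.145, 0.094 and 0.124). With 16 added to the values before the log, which damps dim signals, it was 0.91 and not called (limma, adjusted p = 0.144), and a further quantile normalization ended the call too (0.0615). Eno3, the muscle enolase, was at 6.11, 7.35 and 3.85 against 6.77, 6.83 and 6.60, with an interval of -2.94 to 1.01. Its highest value was on Ebf2-positive replicate 2, where skeletal muscle markers were brightest, and its lowest on replicate 3. A link of Eno3 to these markers was not tested.

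Gapdh, the enzyme often used as a reference gene, was looked at after its values were seen and was not tested, since its probe sets also name a pseudogene or are controls. The brightest, which names Gapdh and a pseudogene, was at 9.72, 10.92 and 10.64 against 11.31, 12.12 and 11.43. The 3' control probe set for Gapdh was at 10.15, 10.95 and 10.64 against 11.23, 11.93 and 11.45. In both, every Ebf2-negative array was above every Ebf2-positive array, with differences of -1.20 and -0.96. The middle and 5' control probe sets differed by -1.15 and -0.74, but their groups overlapped: Ebf2-positive replicate 2 (9.74 and 7.87) was above Ebf2-negative replicate 1 (9.59 and 6.44). The 2 dimmer probe sets that name Gapdh and a pseudogene differed by -0.79 and 0.45.

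**Figure D2:**
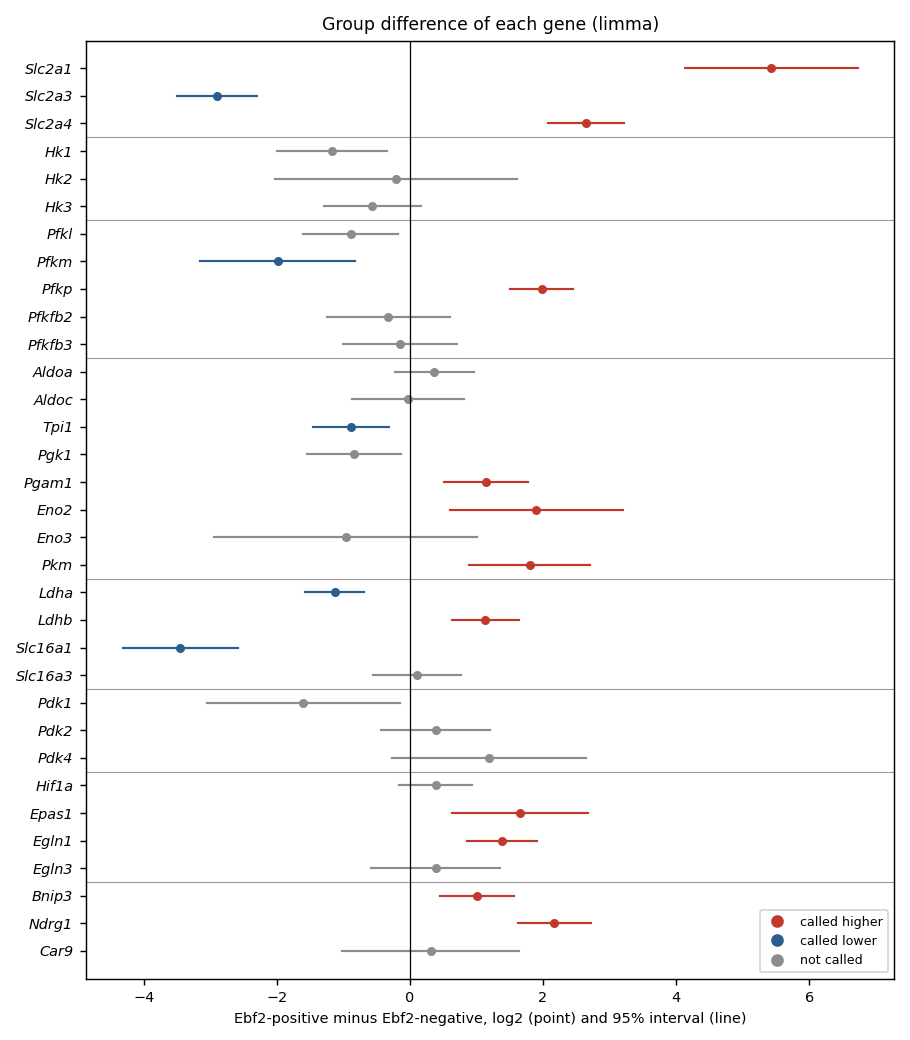
Difference between groups on the log2 scale (point) with its 95% interval from limma (line) for each of the 33 genes, red where called higher, blue where called lower and grey where not called. The 11 red points run from 1.01 (Bnip3) to 5.43 (Slc2a1) and the 5 blue points from -0.89 (Tpi1) to -3.45 (Slc16a1); with poly-A centring each point would stand 2.48 lower.

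The subunits of lactate dehydrogenase differed in opposite directions on the array's own scale, and both were below 0 with poly-A centring. Ldha, the muscle-type subunit that favours making lactate, was at 9.04, 9.08 and 9.36 against 10.31, 10.25 and 10.31 in Ebf2-negative cells. The Ebf2-negative arrays were almost identical, and the difference was -1.13 (SE 0.18; limma, adjusted p = 0.00641). Ldhb, the heart-type subunit that favours using lactate, was at 9.61, 9.13 and 9.29 against 8.09, 8.38 and 8.19, a difference of 1.13 (SE 0.21; limma, adjusted p = 0.0104) that became -1.35 with poly-A centring. The groups did not overlap for either subunit. Each subunit changed by about the same factor, 2.19-fold for Ldha and 2.18-fold for Ldhb. The other Ldhb probe sets differed by 0.71, 0.48 and 0.45, in the same direction but uncalled, so the size of its difference depends on the probe set. Both calls held on leaving out any single array.

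Slc16a1, which encodes the monocarboxylate transporter MCT1, was at 7.20, 6.72 and 6.42 against 10.88, 10.09 and 9.73 in Ebf2-negative cells. Its difference of -3.45 (SE 0.36), or 10.9-fold, was the largest downward difference of the list (limma, adjusted p = 0.0015). MCT1 carries lactate in either direction and is known in red cells. Erythroid and cell-division markers were both higher on the same Ebf2-negative arrays (list means of 9.60 to 9.82 and 9.13 to 9.21). Their part in the Slc16a1 difference was not tested. Slc16a3, the hypoxia-induced exporter MCT4, was at 2.43 to 3.28 over all 6 arrays and differed by 0.11 (interval -0.55 to 0.77).

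The starts of the lactate dehydrogenase genes and of Slc16a1 are shown because the pair differed in opposite directions and Slc16a1 had the largest downward difference. Windows and capitals are as for Slc2a1, read 5' to 3' on each gene's own strand: Ldha at chr7:46845554-46845853 (plus strand, the upstream of 2 annotated starts), Ldhb at chr6:142507908-142508207 (minus strand) and Slc16a1 at chr3:104638414-104638713 (plus strand), all in GRCm38.p6.
Ldha: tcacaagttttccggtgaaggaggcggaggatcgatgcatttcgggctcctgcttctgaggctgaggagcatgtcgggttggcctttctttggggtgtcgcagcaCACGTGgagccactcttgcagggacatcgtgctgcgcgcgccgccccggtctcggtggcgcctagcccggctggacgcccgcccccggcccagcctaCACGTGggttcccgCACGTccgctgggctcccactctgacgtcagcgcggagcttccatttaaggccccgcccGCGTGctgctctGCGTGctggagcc
Ldhb: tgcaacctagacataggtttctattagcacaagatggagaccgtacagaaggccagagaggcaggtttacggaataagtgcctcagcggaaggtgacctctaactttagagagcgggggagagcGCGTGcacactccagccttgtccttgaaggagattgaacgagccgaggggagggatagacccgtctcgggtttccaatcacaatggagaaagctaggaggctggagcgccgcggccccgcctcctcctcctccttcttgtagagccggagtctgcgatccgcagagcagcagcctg
Slc16a1: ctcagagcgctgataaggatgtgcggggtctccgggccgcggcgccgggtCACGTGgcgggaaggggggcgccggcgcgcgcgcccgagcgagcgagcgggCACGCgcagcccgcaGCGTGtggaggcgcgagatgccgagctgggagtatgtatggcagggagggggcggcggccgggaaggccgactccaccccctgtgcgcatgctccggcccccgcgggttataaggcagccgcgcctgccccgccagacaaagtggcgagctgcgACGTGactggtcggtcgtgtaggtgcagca
The Ldha window holds 7 matches, the Slc16a1 window 5 and the Ldhb window 1. The palindrome CACGTG counts as 2 of them, since it reads ACGTG on both strands, and it occurs at -145 and -48 in Ldha and at -200 in Slc16a1. The single GCGTG of Ldhb begins at -126 on the gene's strand.

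Of the 33 genes, 29 matched an entry in the RefSeq promoter table, and with 1 window per gene (the most upstream start) 24 of these held at least 1 ACGTG or GCGTG on either strand. That is 82.8%, against 43.8% of 27025 promoters of the same length. The letters are CG-rich, and so were the windows, with a median GC content of 64.7% for the list and 52.7% for all promoters. By call, the motif was found in 6 of 8 promoters of genes called higher, 3 of 4 of those called lower and 15 of 17 of those not called. A match is only a description of the letters in the window.

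Pyruvate dehydrogenase kinases, which close the entry of pyruvate into mitochondrial oxidation, were not called by limma, and 1 of the 3 had an unadjusted p under 0.05. Pdk1, the HIF-induced form, was at 6.55, 4.14 and 5.90 against 7.45, 6.88 and 7.08. The groups did not overlap, the Ebf2-positive arrays were widely spread, and the difference of -1.60 missed the threshold (limma, adjusted p = 0.107) but passed without Ebf2-positive replicate 1 (adjusted p = 0.0478). Further bright Pdk1 probe sets gave -2.82 and -2.30, and the mean of its probe sets was called lower (adjusted p = 0.0414). Pdk4, the form of fasting and fat oxidation in muscle, was at 4.495, 6.77 and 5.12 against 4.06, 4.87 and 3.90, a difference of 1.18 (interval -0.27 to 2.64) with its highest value on Ebf2-positive replicate 2, and with poly-A centring it was -1.30 and not called. Pdk2 stayed near the array median, with a difference of 0.39.

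The oxygen-sensing genes separated by gene on the array's own scale, and poly-A centring turned each of these differences below 0. Hif1a, the HIF alpha subunit of most cells, was at 8.32, 8.85 and 8.63 against 8.39, 7.97 and 8.30, with overlapping groups and a difference of 0.38 (interval -0.16 to 0.93). Epas1, which encodes HIF-2 alpha, the form of endothelium and perivascular stroma, was at 11.50, 11.84 and 11.92 against 9.53, 11.06 and 9.72. Ebf2-negative replicate 2 was the highest of its group and approached the Ebf2-positive arrays. The Epas1 difference of 1.65 (SE 0.42; limma, adjusted p = 0.0331) lost its call without Ebf2-positive replicate 1, 2 or 3 (adjusted p = 0.0602, 0.0756 and 0.0807) and without Ebf2-negative replicate 1 or 3 (0.104 and 0.118), and it was -0.83 with poly-A centring. The other Epas1 probe set, dim in both groups, differed by -0.08, and the mean of both was 0.78 and not called (limma, adjusted p = 0.131). Adding 16 to the values or weighting arrays also ended the call (adjusted p = 0.052 and 0.0676). Of 6 endothelial markers, 2 were called higher in Ebf2-positive cells (Tek and, named after its values were seen, Esam), while Cdh5 and Kdr were not, with list means of 5.80 to 7.24 against 4.22 to 5.74. Egln1, the main HIF prolyl hydroxylase PHD2, was at 9.41, 9.52 and 9.13 against 8.25, 7.79 and 7.89, a difference of 1.38 (SE 0.22; limma, adjusted p = 0.00587) that held on leaving out any single array and became -1.10 with poly-A centring. Egln3, the strongly hypoxia-induced PHD3, was dim and differed by 0.38 with overlapping groups.

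Of the HIF targets outside glycolysis, Ndrg1 and Bnip3 were higher before, and not after, poly-A centring (-0.31 and -1.47). Ndrg1, a stress-responsive gene of differentiation, was at 10.11, 9.66 and 10.27 against 7.98, 7.86 and 7.70, a difference of 2.16 (SE 0.23), or 4.48-fold (limma, adjusted p = 0.00156). All 5 of its probe sets differed upward, by 0.67 to 2.16, and 3 of them passed among probe sets. Bnip3, a receptor for the removal of mitochondria, was at 7.89, 7.58 and 7.30 against 6.78, 6.36 and 6.61, a difference of 1.01 (SE 0.23; limma, adjusted p = 0.0231). The groups did not overlap, but the call was lost without Ebf2-negative replicate 2 or 3 (adjusted p = 0.0832 and 0.08) and with a trended, robust variance prior (0.0564). Car9, the carbonic anhydrase that serves as a marker of hypoxic cells, was at 5.28, 6.05 and 3.85 against 4.38, 4.85 and 5.01, and its difference of 0.31 (interval -1.02 to 1.64) lay within that spread.

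Because isoenzymes are measured by different probes, their balance was read as the log2 signal of one minus that of the other on the same array, which shows unequal change between the groups and not which isoenzyme is more abundant. Of 21 listed pairs, 19 were measured, and in 9 the balances of the groups did not overlap. Among all gene pairs on the array 48.7% did not overlap, so the count of 9 in 19 is near the background and the pairs are described by the size of their shifts. Exact permutation of 3 against 3 arrays cannot give less than p = 0.1 (two-sided), the value of all 9, or 0.211 after adjustment over the 19 pairs, so none could pass. The Slc2a1 minus Slc2a3 balance was 5.76, 3.10 and 4.73 against -4.31, -3.67 and -3.42, a shift of 8.33 (SE 0.82). It was the widest of the 19, with a wide gap between the groups. The Slc2a3 minus Slc2a4 balance shifted by -5.55 (SE 0.33), and Slc2a1 minus Slc2a4 by 2.78 (SE 0.58). Both balances with Slc2a3 rest on its probe set that can cross-hybridise. Without such probe sets Slc2a3 differed by -0.02, so the size of these shifts depends on that probe set.

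The Pfkm minus Pfkp balance was -1.99, -3.64 and -1.48 against 1.66, 1.43 and 1.69, a shift of -3.97 (SE 0.66). Pfkl minus Pfkp shifted in the same way, by -2.87 (SE 0.30), whereas Pfkl minus Pfkm overlapped between groups (1.095, SE 0.81). Pfkp thus moved apart from both other subunits. The Ldha minus Ldhb balance was -0.58, -0.05 and 0.07 against 2.22, 1.88 and 2.12, a shift of -2.26 (SE 0.22), with little spread within either group. Slc16a1 minus Slc16a3 shifted by -3.56 (SE 0.65), set by Slc16a1, as Slc16a3 was dim throughout. Pdk1 minus Pdk2 shifted by -1.99 (SE 0.88). Eno2 minus Eno3 shifted by 2.86 (SE 1.29), but Ebf2-positive replicate 2 (-3.65) nearly touched the Ebf2-negative arrays (-4.35, -3.83 and -3.81). The hexokinase balances overlapped in all 3 pairs, with shifts of -0.97 (SE 0.96), -0.61 (SE 0.56) and 0.36 (SE 1.07). Hif1a minus Epas1 (-1.27, SE 0.61) and Egln1 minus Egln3 (0.995, SE 0.47) overlapped as well.

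**Figure D3:**
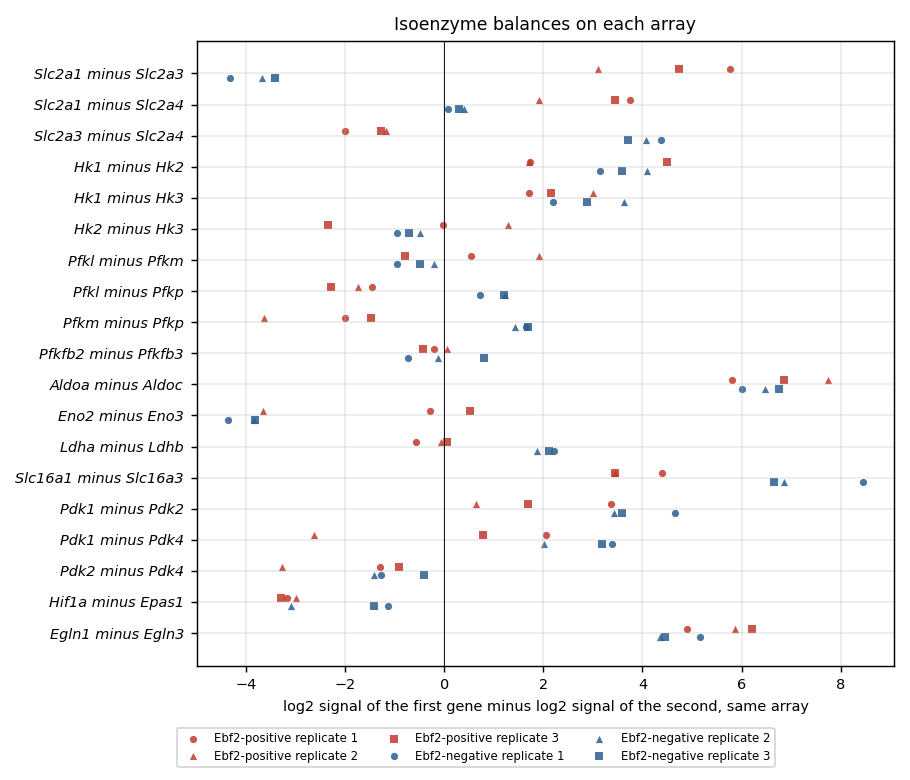
Balance of 19 isoenzyme pairs on each array, as log2 signal of the first gene minus log2 signal of the second (x axis), Ebf2-positive in red and Ebf2-negative in blue. Red and blue are separate in 9 pairs, with the widest gap for Slc2a1 minus Slc2a3 (3.10 and above against -3.42 and below) and tight groups for Ldha minus Ldhb. The Slc2a3 probe set used here can cross-hybridise.

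Calls on a single probe set could hide disagreement, so all 75 probe sets of the 33 genes were compared. Among them 14 were called higher and 6 lower in the fit over all probe sets, in which 15.1% were called. Of the 21 genes with several probe sets, none had calls in both directions. Slc2a1, Tpi1, Pgk1, Ldhb and Ndrg1 were among the genes with the same sign on every probe set, as were Slc2a4, Hk1, Slc16a1 and Egln1. Pdk1 differed by 0.39 on a probe set at the floor of the array against -1.60 to -2.82 on its brighter ones. Aldoa ranged from -0.31 to 0.41 and Pfkfb2 from -0.32 to 1.13, with no probe set of either called. Hif1a ranged from -0.18 to 1.56 over its 4 probe sets, and on the probe set with 1.56 Ebf2-positive replicates 1 and 3 (5.90 and 6.18) stood apart from replicate 2 (2.36).

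**Figure D4:**
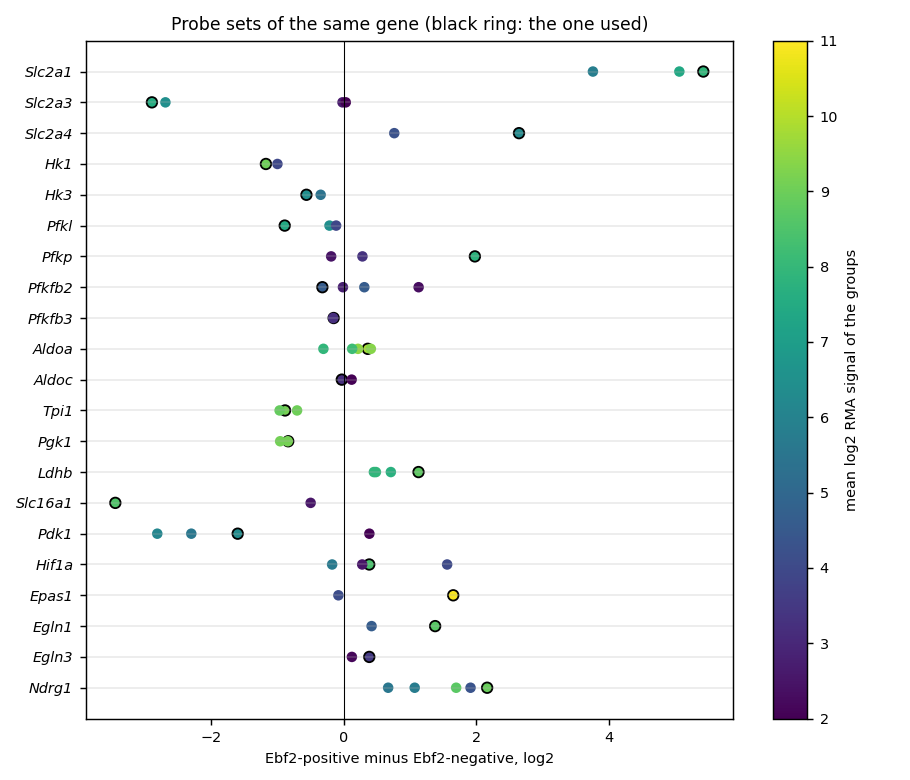
Difference between groups (x axis, log2) of every probe set of the 21 genes that have more than 1, coloured by its mean signal, with a black ring on the one used. Dim probe sets, in dark colours, lie between -0.50 and 0.28 for Slc2a3, Pfkp and Slc16a1, whose probe sets in use differ by -2.90, 1.98 (-0.50 with poly-A centring) and -3.45.

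Beyond the list, 73 measured genes of neighbouring steps were examined, of which 11 were higher, 18 lower and 44 not called, with a median difference of -0.23, beside 10.8% of all genes called higher, 13.6% lower and 24.4% in either direction. Of 12 genes of pyruvate fate, 8 were lower and 1 higher. They included Pdk3, a further pyruvate dehydrogenase kinase (-4.21, SE 0.32, limma, adjusted p = 0.000543), Dld, the E3 subunit of the dehydrogenase (-2.54), and Pcx, pyruvate carboxylase (-2.28). Pdk3 was at 4.01, 4.87 and 3.81 against 8.69, 8.32 and 8.32, so of the 4 kinases it was the one called. Of 6 pentose phosphate genes, 5 were lower and 1 was not called, with Rpia, ribose 5-phosphate isomerase, at -2.14 (limma, adjusted p = 0.00205). The red-cell forms Pklr, pyruvate kinase of liver and erythrocytes (4.27 to 5.096 against 7.49 to 8.32), and Bpgm, which makes 2,3-bisphosphoglycerate for haemoglobin, were both lower (-3.32 each). Pkm and Pklr, the 2 pyruvate kinase genes, therefore differed in opposite directions on the array's own scale (1.80 and -3.32), but not with poly-A centring (-0.68 and -5.796). Minpp1, a phosphatase that also acts on 2,3-bisphosphoglycerate, differed by -3.78.

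Among genes grouped as sugar entry and side enzymes, Slc2a10 and Slc2a13, of the same transporter family as Slc2a1, were higher by 4.07 and 2.74. Membership of the family does not show that either carries glucose. The Slc2a10 difference stayed called with poly-A centring (1.59), whereas that of Slc2a13 was 0.26 and not called (limma, adjusted p = 0.741). Calls with this centring carry the limit given where it was introduced. Slc2a13 also lost its call with array weights (adjusted p = 0.0802) and without Ebf2-positive replicate 1, 2 or 3 (adjusted p = 0.0698, 0.0751 and 0.0744) or Ebf2-negative replicate 1 or 3 (0.107 and 0.0769). Of 22 further HIF targets, 6 were higher and 2 lower, with a median of 0.42. Adm, the vasodilator adrenomedullin, was at 9.30, 9.70 and 9.57 against 7.19, 5.63 and 3.23 (4.17, SE 0.93, limma, adjusted p = 0.0199). Its Ebf2-positive values were tight and its Ebf2-negative values spread widely, and leaving out Ebf2-positive replicate 1 or 2 (adjusted p = 0.0512 and 0.0501) or Ebf2-negative replicate 2 (0.0538) ended the call. P4ha2, P4ha1 and Plod2, which hydroxylate collagen, differed by 3.92, 2.02 and 2.30, with P4ha1 (-0.45) and Plod2 (-0.18) below 0 under poly-A centring, and P4ha1 lost its call without Ebf2-positive replicate 1 or 3 (adjusted p = 0.0522 and 0.0539) or Ebf2-negative replicate 2 (0.0527). Bhlhe40, a transcriptional repressor, differed by 2.90. With poly-A centring P4ha2 (1.45, adjusted p = 0.0612) and Bhlhe40 (0.42, adjusted p = 0.594) stayed above 0 but were no longer called by limma, and Adm stayed called (1.69). Vegfa, the vascular growth factor, differed by 1.47 (limma, adjusted p = 0.0469) and lost its call without any 1 of the 6 arrays (adjusted p = 0.0596 to 0.123). Its difference was -1.01 with poly-A centring. The lower targets were Tfrc, the transferrin receptor of red-cell precursors (-4.03), and Higd1a, a mitochondrial protein named after its values were seen (-1.30). None of the 6 other oxygen-sensing genes was called by limma, and 0 of the 6 had an unadjusted p under 0.05.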

How the data were processed

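Arrays of 6 samples, 3 per group by their titles, were analysed. The authors deposited an RMA intensity for every probe set on every array (background correction, quantile normalization, probe summary), per the submitters' processing notes, which name no version. Values ran from 2.19 to 24894, so they are linear, and log2 was taken without a pseudocount. Quantile normalization hides differences in total RNA per cell, and amplifying the RNA of few cells widens the spread of dim genes.

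Of 45101 probe sets, 64 controls were left out, and 34945 name a single gene in GEO's platform annotation. For each of 18193 genes the probe set with the highest mean was fitted with limma 3.58.1 in R 4.3.3 (lmFit, eBayes, two-sided, Benjamini-Hochberg, threshold 0.05), checked on simulated data. All measured genes of the list are named, and up to 8 higher and 8 lower of the neighbouring genes. Members, lists and most tests were chosen with earlier results of these data known. Balances used exact permutation tests. Alternatives covered scaling, filters, probe sets, variance models, array weights, a minimum difference (treat), the replicate number as a block and leaving out each array. Promoters are RefSeq's (GRCm38.p6). Figures used matplotlib 3.10.9. The number of arrays limits the precision.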

Additional observations from a re-analysis of the deposited data

How the results depend on the processing

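Of the 16 called genes of the list, 8 (Slc2a1, Slc2a4, Pkm, Ldha, Ldhb, Slc16a1, Egln1 and Ndrg1) kept call and direction in the 16 settings other than poly-A centring and treat, and 4 of the 17 uncalled genes passed in at least 1 of them. With poly-A centring 1 gene of the list was called higher and 21 lower, 2 and 59 of the neighbouring genes, and 15823 of all genes. These counts carry the limit given for that centring, since the error of the controls is shared by all genes of an array. Under it the differences became -0.50 for Pfkp, -2.12 for Aldoa, -1.34 for Pgam1, -0.58 for Eno2, -0.68 for Pkm, -1.35 for Ldhb, -2.37 for Slc16a3, -2.09 for Pdk2, -1.30 for Pdk4, -2.10 for Hif1a, -0.83 for Epas1, -1.10 for Egln1, -2.10 for Egln3, -1.47 for Bnip3, -0.31 for Ndrg1, -2.17 for Car9, -0.18 for Plod2, -0.45 for P4ha1 and -1.01 for Vegfa, all from the same subtraction of 2.48. With treat and a minimum log2 difference of 1, 4 genes of the list were higher and 2 lower, 4 and 7 of the neighbouring genes, and 1433 of all genes, since it asks for larger changes. Leaving out single arrays gave 7 to 10 higher and 3 to 6 lower genes of the list, 6 to 9 higher and 14 to 19 lower neighbouring genes, and 2690 to 4348 of all genes, the lowest without Ebf2-negative replicate 3 (7 higher and 3 lower of the list). Without Ebf2-negative replicate 2, 3 of the list were lower. Fewer samples were fitted in these. Averaging the probe sets of each gene turned the Pfkfb2 minus Pfkfb3 balance to 0.43 (the cause was not tested). Centring on the 75th percentile shifts every difference by 0.12. Deviations of same-numbered arrays correlated at 0.06, 0.11 and 0.03 over all genes, and those of differently numbered arrays at -0.10 to 0.04. For each Ebf2-positive array, the Ebf2-negative array of the same number gave the highest value. The labels do not say that a number marks a shared batch, so the numbers were not used to pair arrays in the main fit. Both arrays numbered 1 had a high Gapdh 3' to 5' ratio (25.4 and 27.6), and whether they were processed together was not tested. With the replicate block 10 genes of the list were higher and 5 lower, and 4219 of all genes were called, against 11, 5 and 4430. Eno2 and Tpi1 were not called (adjusted p = 0.0761 and 0.0568), and Hk1 was called lower (0.0368). Signals near the array median limit what can be seen for Aldoc, Slc16a3, Pdk2 and Egln3.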
